A study of Homo sapiens with 6 samples.

Results

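The cytosolic ribosomal protein genes were examined for DNA N6-methyladenine (6mA), a modification in which adenine carries a methyl group on its amino nitrogen. The members were the protein-coding genes of GENCODE on GRCh37 whose symbols begin with RPL or RPS and a number, together with RPLP0, RPLP1, RPLP2 and RPSA. Kinases named RPS6K and paralogues with an L-like suffix were left out. This rule gave 79 genes among 20163 protein-coding genes, 46 of them for the large and 33 for the small ribosomal subunit. The data were 6mA-IP-seq peaks of MDA-MB-453, a line established from a human breast cancer. In this assay genomic DNA is enriched with an antibody against 6mA and sequenced, and a peak is a stretch where fragments pile up above a local background. The control cells received a scramble siRNA and the si-N6AMT1 cells an siRNA directed at N6AMT1, which the study investigated as a methyltransferase for DNA 6mA. Each siRNA was given at 10 nM for 48 h, with Lipofectamine RNAiMAX as the carrier, and all libraries came from this one cell line. Peak lists of 4 immunoprecipitated libraries were analysed, 2 per group, which the labels call biological replicates, and the 2 input libraries were not analysed here. The lists carry no measure of N6AMT1 itself, so the depth of the knockdown was not analysed here.

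A ribosome is built from a small subunit, which decodes the messenger RNA, and a large subunit, which joins amino acids into protein. Each subunit is a core of ribosomal RNA clothed in ribosomal proteins, and nearly every such protein comes from a single expressed gene. These genes are compact, among the most strongly transcribed genes of a dividing cell, and many carry small nucleolar RNAs in their introns. They also left a large number of processed pseudogenes in the genome. DNA 6mA is scarce in human nuclear DNA and hard to measure, so sequence under some of the recurrent peaks is shown before their values.

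Of the 7 regions at ribosomal protein genes that were called in 3 or 4 libraries, 6 lay on simple tandem repeats, and summit sequences of this kind are printed first. Each run below is 200 bp of GRCh37 (hg19) around the strongest summit of a region, read 5′ to 3′ on the plus strand. The windows shown are of regions with repeats of ATCC, which capitals mark. It occurred 11 times in the RPL28 window and 21 times in each RPL36 window. All of these windows lay on chromosome 19.
RPL28 (chr19:55893394-55893593, plus strand): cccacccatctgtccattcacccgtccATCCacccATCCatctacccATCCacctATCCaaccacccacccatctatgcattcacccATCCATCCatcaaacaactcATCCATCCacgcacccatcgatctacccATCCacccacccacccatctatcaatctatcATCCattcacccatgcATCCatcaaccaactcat
RPL36 first region (chr19:5673890-5674089, plus strand): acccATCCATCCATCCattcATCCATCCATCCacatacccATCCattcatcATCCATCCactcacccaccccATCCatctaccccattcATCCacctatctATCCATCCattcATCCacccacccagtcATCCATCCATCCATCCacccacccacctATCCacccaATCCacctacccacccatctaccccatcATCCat
RPL36 second region (chr19:5681523-5681722, plus strand): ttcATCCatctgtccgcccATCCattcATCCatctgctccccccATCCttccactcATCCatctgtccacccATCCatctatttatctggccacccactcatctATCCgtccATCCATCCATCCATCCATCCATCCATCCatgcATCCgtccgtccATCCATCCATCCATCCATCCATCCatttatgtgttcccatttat

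At other regions the summit windows held long runs of purines (A or G) or, read from the other strand, of pyrimidines (C or T). The longest such run was 158 bp in the RPL3 window and 72 bp in the RPS29 window, both of regions called in all 4 libraries. At RPL37A, whose window was the most repetitive of those called in a single library, the run was 200 bp and filled the window. RPS3, the gene with the region called in both si-N6AMT1 libraries alone, had a run of 20 A or T.

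Few ribosomal protein genes held a 6mA peak in any one library. A gene was counted when a peak overlapped its span, or 5 kb on either side, by at least 1 bp. Control replicate 1 had a peak at 8 of the 79 genes (10.1%) and control replicate 2 at 11 (13.9%). In si-N6AMT1, replicate 1 had a peak at 13 genes (16.5%) and replicate 2 at 12 (15.2%). Over all protein-coding genes the shares were 34.5% and 35.4% in control, against 40.3% and 41.0% in si-N6AMT1. Every library thus placed peaks at a smaller share of ribosomal protein genes than of all protein-coding genes, and part of that gap goes with gene length. The median length was 5548 bp for ribosomal protein genes and 27356 bp for the others. When the other genes were weighted to the lengths of the ribosomal protein genes, their shares were 17.9% and 18.5% in control, against 21.5% and 22.3% in si-N6AMT1. The share at ribosomal protein genes remained lower in 4 of 4 libraries, with means of 13.9% ± 2.73 against 20.1% ± 2.19 (SD, n = 4). This comparison is a description without a test. The weighting used 5 length classes, the longest open above 20 kb. With deciles of gene length instead, the mean share of other genes was 17.2%, so the size of the gap depends on the classes. The number of peaks gave the same order. Their windows held 5.47 and 6.68 peaks per Mb in control, against 9.11 and 8.5 in si-N6AMT1. All protein-coding windows held 10.2 and 11.1 peaks per Mb in control, against 13.1 and 13.6 in si-N6AMT1.

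The gap was not the same at every length. With the gene span as GENCODE draws it, the lowest share relative to other genes was in the class of 20 kb and over. There 23.1% ± 10.9 (SD, n = 4 libraries) of 13 ribosomal protein genes and 53.9% ± 4.16 of 11647 other genes held a peak. In the class of 10 to 20 kb the order was turned round, with 32.1% ± 7.14 of 7 ribosomal protein genes against 20.4% ± 2.9. That share rests on 2 or 3 genes with a peak per library, too few to carry weight. Between 5 and 10 kb the shares were 14.4% ± 6.57 of 26 genes and 14.7% ± 1.92, a difference within the spread of the libraries. Between 2.5 and 5 kb they were 5.77% ± 4.97 of 26 genes and 10.6% ± 1.59, and under 2.5 kb 7.14% ± 8.25 of 7 genes and 11.9% ± 1.51. Long spans of ribosomal protein genes often reach past the representative transcript, and how strongly the longer transcripts are expressed was not analysed here. Of the 13 genes in the longest class, 11 have a MANE Select transcript, the curated representative transcript of a gene, that is shorter than 20 kb, and 2 (RPS4Y1 and RPS4Y2) lie on chromosome Y. Whether the cells carry that chromosome was not analysed here. Without these 2 genes, 28.6% of the remaining 77 held a peak in at least 1 library. No share of other genes weighted to those 77 is given, and both genes stay in the other shares.

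With the MANE Select transcript in place of the gene span, a choice made after the data were seen, all classes gave a lower mean share at ribosomal protein genes. Then 4 and 7 genes held a peak in control, against 6 and 4 in si-N6AMT1. Across the libraries the mean share was 6.65% for ribosomal protein genes and 13.5% for other genes weighted to the same lengths. In the class of 5 to 10 kb the shares were 7.76% ± 4.34 of 29 genes and 14.5% ± 1.88 of other genes (SD, n = 4). Between 2.5 and 5 kb they were 6.25% ± 3.5 of 36 genes and 10.4% ± 1.58. Only 3 ribosomal protein genes fell between 10 and 20 kb and 2 above, too few for a share to carry weight. The 2 above were RPS4Y1 and RPS4Y2 on chromosome Y, with a share of 0% beside 52.3% of other genes.

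**Figure D1:**
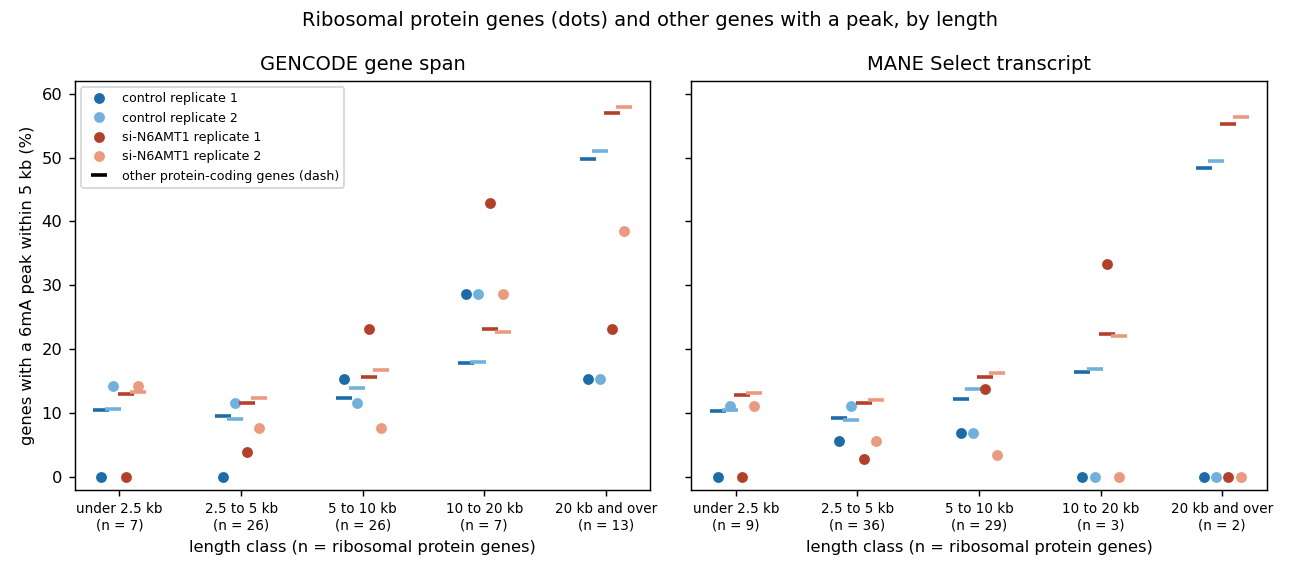
Share of genes (%) with a 6mA peak within 5 kb, by length class, for the GENCODE gene span (left) and the MANE Select transcript (right). Dots are ribosomal protein genes and dashes other protein-coding genes, one per library, in blue for control and red for si-N6AMT1. With the gene span, dots lie above dashes in the class of 10 to 20 kb (means 32.1% and 20.4%), which holds only 7 ribosomal protein genes. They lie below the dashes at 20 kb and over (23.1% and 53.9%).

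Taking the 4 libraries as a whole, 22 of 79 ribosomal protein genes (27.8%) held a peak in at least 1 library, against 54.2% of all protein-coding genes. Weighted to the same 5 length classes, other genes gave 32.4%, which would be 25.6 of 79 genes. The largest difference was at 20 kb and over, where 6 of 13 genes held a peak, beside 73% of other genes. Below 20 kb the classes went both ways. The counts were 3 of 7 beside 36.2% (10 to 20 kb) and 8 of 26 beside 26.8% (5 to 10 kb). They were 4 of 26 beside 19.7% (2.5 to 5 kb) and 1 of 7 beside 21.6% (under 2.5 kb). Weighted by both length and GC content they gave 31.7%. A peak in all 4 libraries was found at 4 ribosomal protein genes (5.06%), namely RPL28, RPL3, RPL36 and RPS29. Among all protein-coding genes that share was 23.8%, and among other genes weighted to the same lengths 11%, which would be 8.65 of 79 genes. These weighted figures rest on the 5 length classes, the longest of which has no upper edge. With the MANE Select transcript as the gene, 12 genes held a peak in any library, and RPL28 alone held one in all 4.

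The 57 ribosomal protein genes without a peak in any library came from both subunits. Of the large subunit 15 of 46 genes held a peak in any library, and of the small subunit 7 of 33. No peak was listed near RPLP0, RPLP1 or RPLP2, whose products form the stalk that recruits translation factors to the large subunit. The same was true of RPL5, whose product binds the smallest ribosomal RNA of that subunit, and of RPL10, whose product is added late in its assembly. Among small subunit genes without a peak were RPSA, RPS6, whose product is phosphorylated under growth signalling, RPS19, a Diamond-Blackfan anaemia gene, and RPS27A, which is translated as a fusion with ubiquitin. The absence of a listed peak says only that no stretch passed the caller's threshold at these depths.

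Along the genes, most summits lay outside the MANE Select transcript. Merging overlapping peaks of the 4 libraries gave 27 regions at ribosomal protein genes. By its strongest summit, 3 regions lay within 1000 bp of an annotated start, 1 in an exon, 8 in introns, 7 in the upstream flank and 8 in the downstream flank. For other protein-coding genes, 85.5% of region and gene pairs had the summit in an intron, 5.56% in the upstream flank, 5.53% in the downstream flank, 2.47% near a start and 0.979% in an exon. Ribosomal protein genes are short, so the flanks make up a larger part of each window. No ribosomal protein gene had coding sequence under a peak in any library, but the share for coding sequence of other genes was not counted. An exon was touched at 1 gene, RPS29, beside 5.33% of other protein-coding genes and 3.4% when weighted to the same lengths. Only RPL7 had a peak over its MANE Select transcript (1.27%), beside 41% of other genes and 8.13% of other genes weighted to the same MANE Select lengths. A window of 1000 bp on either side of the MANE Select start was touched at 2 genes, RPL7 and RPL35, beside 4.23% of other genes. Introns of 29 ribosomal protein genes host 60 small nucleolar RNAs, and 0 of the 60 lay under a peak, beside 1.14% of the 1398 small nucleolar RNAs elsewhere, so a count of 0 is near the background. A peak somewhere in the window was found at 8 of the 29 host genes and at 14 of the 50 genes that host none.

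**Figure D2:**
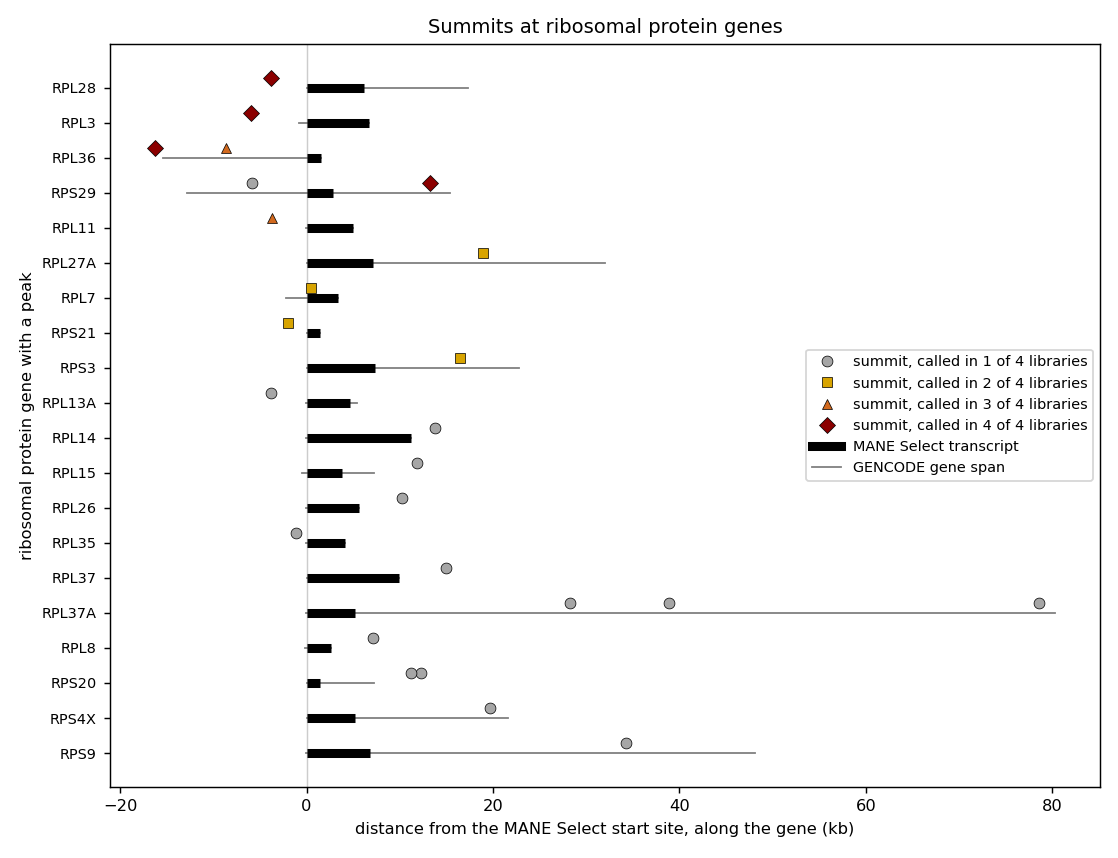
Strongest summits of regions at ribosomal protein genes, in kb from the MANE Select start site along the direction of the gene. Black bars are MANE Select transcripts, grey lines GENCODE gene spans, and markers show how many of the 4 libraries called the region. The RPL7 summit, 0.516 kb past the start, is the only one on a black bar.

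The distance from the MANE Select start to the nearest summit had a median of 46.9 and 42.2 kb for ribosomal protein genes in the control libraries. It was 28.9 and 32.1 kb in si-N6AMT1. For other protein-coding genes the medians were 39.2 and 37.2 kb in control, against 29.2 and 27.6 kb in si-N6AMT1. The nearest summit of all to a start was that of RPL7 in both control libraries, at 0.466 and 0.516 kb. In si-N6AMT1 the nearest was at RPL11 in replicate 1, at 3.7 kb, and at RPS21 in replicate 2, at 1.96 kb.

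Among large subunit genes, RPL28 had the region with the highest fold of all. RPL28 is a large subunit protein without a bacterial counterpart. Its region (chr19:55892715-55893777) lay 3.81 kb upstream of the start, inside the neighbouring gene TMEM238. The fold, the fragment pileup at the summit over the local background with 1 added to each, was 16.1 and 9.31 in control, against 11.6 and 9.89 in si-N6AMT1. The pileups behind these values were 32, 21, 27 and 24 fragments. The groups overlapped, and the spread between the control replicates exceeded the distance between the groups.

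RPL3, whose product reaches close to the site of peptide bond formation, had its region (chr22:39721265-39721835) at the very edge of the window. The strongest summit was 5.14 kb upstream of the gene span and 5.91 kb from the MANE Select start, and only the flank of the region reached into the 5 kb. The fold was 10.8 in both control libraries and 9.94 and 11.5 in si-N6AMT1, with pileups of 23, 26, 23 and 28 fragments. The si-N6AMT1 values lay on either side of the control values.

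RPL36, a small protein of the large subunit, had more than 1 recurrent region. The first (chr19:5673310-5674324) lay 0.968 kb before the GENCODE start but 16.3 kb before the MANE Select start. Its fold was 13.3 and 9.5 in control, against 11.1 and 11.7 in si-N6AMT1, with pileups of 32, 27, 27 and 30 fragments. The second (chr19:5681409-5681871) lay 8.68 kb before the MANE Select start, where HSD11B1L is also annotated. It was called in control replicate 1 at a fold of 8.29 and in the si-N6AMT1 libraries at 9.11 and 9.89, and not in control replicate 2. Both regions fall outside the window when the MANE Select transcript stands for the gene.

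RPL11, whose product joins RPL5 and the smallest ribosomal RNA, had a region (chr1:24014020-24014745) 3.64 kb upstream. The fold was 5.62 and 4.07 in control, against 7.8 in si-N6AMT1 replicate 1, and replicate 2 had no call. A missing call beside a called replicate of the same group shows how far single calls vary between replicates.

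RPL7 was the only ribosomal protein gene with a region called in both control libraries and in neither si-N6AMT1 library. RPL7 is a large subunit protein that binds ribosomal RNA. The region (chr8:74205203-74205638) lay in an intron, 0.516 kb past the MANE Select start. Its fold was 9 and 9.54 in control, from pileups of 20 and 25 fragments over backgrounds of 1.33 and 1.73. No value is listed for si-N6AMT1, so the size of the difference cannot be given. Over all regions at protein-coding genes, 2.63% were called in both control libraries alone, and over the 27 regions here it was 1. By gene, 0.833% of protein-coding genes had a peak in both control libraries and in neither si-N6AMT1 library.

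Of the remaining large subunit genes, RPL27A had an intronic region (chr11:8723188-8723611) inside the span of DENND2B. It was called in control replicate 2 at a fold of 5.44 and in si-N6AMT1 replicate 2 at 4.38. The backgrounds there were 3.41 and 4.02 fragments, above the lowest backgrounds of these libraries, 1.36 and 1.53. RPL37A had 3 intronic regions, all far past its MANE Select transcript and each called once. The fold was 8.29 in control replicate 1 at the first and 7.87 and 8.28 in si-N6AMT1 replicate 1 at the others. RPL35 had a region (chr9:127624994-127625494) 1.1 kb upstream of its start, within ARPC5L, at a fold of 5.15 in control replicate 2. RPL13A (7.81, control replicate 1), RPL8 (5.5, control replicate 2) and RPL14 (7.42, si-N6AMT1 replicate 1) likewise had a region with 1 call. So had RPL15, RPL26 and RPL37, at folds of 4.96, 5.98 and 7.04 in si-N6AMT1 replicate 1.

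**Figure D3:**
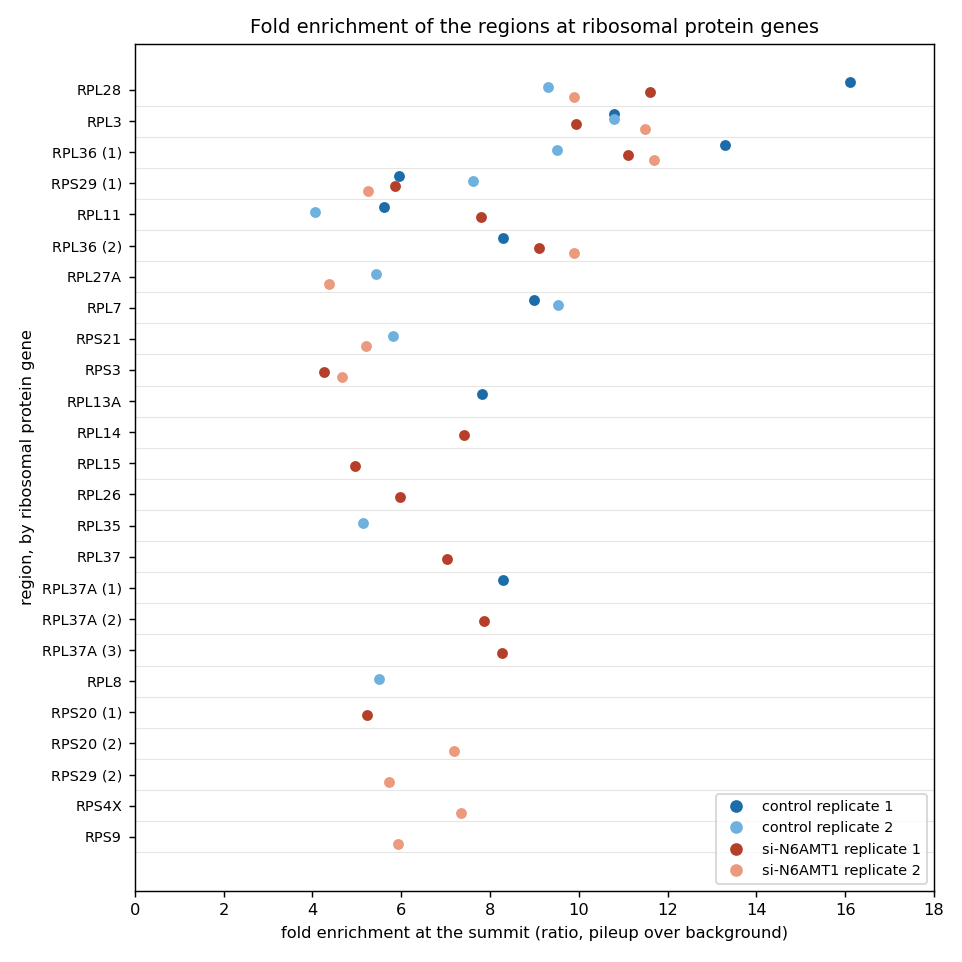
Fold enrichment at the summit (ratio of pileup to background, with 1 added to each) for regions at ribosomal protein genes, in the libraries that called them. Blue is control and red si-N6AMT1, and numbers in brackets tell regions of the same gene apart. The top rows, RPL28 to the first RPS29 region, were called in all 4 libraries, and the rows from RPL13A down have 1 point each.

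Among small subunit genes, RPS29 was the one with a region called in all 4 libraries. RPS29 is a zinc-binding protein of the small subunit. The region (chr14:50039665-50040228) lay 13.2 kb past the MANE Select start, beyond the end of that transcript, in an exon of a longer GENCODE transcript and outside coding sequence. The fold was 5.95 and 7.61 in control, against 5.85 and 5.25 in si-N6AMT1, so both control values were above both si-N6AMT1 values. The pileups were 13 and 20 fragments in control, against 19 and 18 in si-N6AMT1, which overlapped. The backgrounds were 1.35 and 1.76 in control, against 2.42 and 2.62 in si-N6AMT1, which did not. Among the regions at protein-coding genes called in all 4 libraries, 23.6% had a higher fold in both control libraries and 17.4% in both si-N6AMT1 libraries. At RPL28, RPL3 and the first RPL36 region, which were also called in all 4, the groups overlapped.

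RPS3 had the only region called in both si-N6AMT1 libraries and in neither control library. RPS3 lines the channel through which messenger RNA enters the small subunit and has also been linked to DNA repair. The region (chr11:75126805-75127555) lay in an intron of a long transcript, 16.5 kb past the start. The fold was 4.27 and 4.67, from pileups of 12 and 14 fragments. These are low values, and the −log10 q was 4.44 and 5.55. When −log10 q had to reach 5, or with equal numbers of peaks from each library, the region was no longer called in both. Over all regions at protein-coding genes, 5.66% were called in both si-N6AMT1 libraries alone. By gene, RPS3 and RPS20 had a peak in both si-N6AMT1 libraries and in neither control library, beside 2.85% of protein-coding genes. At RPS20, which encodes a protein of the small subunit head, the libraries called different regions. The fold was 5.23 in replicate 1, 5.1 kb past the gene, and 7.19 in replicate 2, 3.98 kb past it.

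RPS21 had a region (chr20:60960053-60960671) 1.96 kb upstream, called in control replicate 2 at a fold of 5.81 and in si-N6AMT1 replicate 2 at 5.2. A second RPS29 region and regions at RPS4X and RPS9 were each called in si-N6AMT1 replicate 2 alone, at folds of 5.72, 7.34 and 5.93. The RPS9 region lay 34.4 kb into a span that also covers LILRA6 and LILRB3. Those at RPS29 and RPS4X were intronic too. In all, 16 of the 27 regions (59.3%) had a call in 1 library, beside 50.4% of regions at protein-coding genes. Regions called in all 4 numbered 4, or 14.8%, beside 16.6%.

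The comparison of the groups asked whether peaks at ribosomal protein genes changed after N6AMT1 knockdown. Ribosomal protein genes with a peak numbered 9.5 ± 2.12 in control, against 12.5 ± 0.707 in si-N6AMT1 (SD, n = 2 each), a difference of 3 genes, with p = 0.33 in an exact two-sided permutation test. Peaks at these genes numbered 10 ± 1.41 and 14.5 ± 0.707 (exact permutation p = 0.33, n = 2 each). With 2 libraries against 2, 0.33 is the smallest p this test can give, so no difference could reach 0.05. With equal numbers of peaks from each library the difference was 1 gene (exact permutation p = 1, n = 2 each) and 2 peaks, and with 1 kb on either side it was 0.5 genes (p = 1 in the same exact permutation test) and 2 peaks. The full lists held 30451 and 33410 peaks in control, against 38847 and 40844 in si-N6AMT1, at recovered depths of 1, 1.32, 1.38 and 1.5 relative to the first library. Depth and group cannot be told apart. The density of peaks at ribosomal protein genes, divided by that at all protein-coding genes, was 0.534 and 0.601 in control, against 0.695 and 0.627 in si-N6AMT1. Both si-N6AMT1 ratios were above both control ratios, with a difference of 0.0939 (exact permutation p = 0.33, n = 2 each). With the MANE Select transcript as the gene the difference of the ratios was −0.113 (exact permutation p = 0.667, n = 2 each) and that of the genes with a peak was −0.5, so the direction of both rests on the gene model. The median fold of peaks at ribosomal protein genes was 8.29 and 7.61 in control, against 7.8 and 6.56 in si-N6AMT1, which overlapped (exact permutation p = 0.667, n = 2 each).

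The sequence at the summits was described next. Tandem repetition was measured as the largest share of bases in a 200-bp summit window that equal the base 1 to 8 positions further on. These sequence measures were chosen after the summit sequences had been seen and are descriptions without a test. Over all 27 regions, 9 (33.3%) had a share of at least 50%, beside 22.5% of all regions, and the medians were 44.3% and 40.7%. Of the 7 ribosomal protein gene regions called in 3 or 4 libraries, 6 (85.7%) had a share of at least 50%, beside 41.2% of all regions called in 3 or 4 libraries. The exception was RPL11, at 42.4%. Among the others were RPS29 at 54.1%, RPL28 at 66.3%, the RPL36 regions at 69.4% and 68.9% and RPL3 at 70.4%, each with a period of 4. Of the 4 regions called in 2 libraries, 0 reached 50%, beside 19.4% of all such regions, with values from 31.5% at RPL27A to 44.4% at RPS21. Of the 16 regions called in 1 library, 18.8% reached 50%, beside 12.7% of all such regions. Those 3 all belonged to RPL37A, at 61.7%, 51% and 89.3%. In windows 2000 bp before the summits of all regions the share was 0.92%. In the lists as a whole the share of regions at 50% or more rose with the number of libraries, from 12.7% through 19.4% to 41.2%. At ribosomal protein genes the same share was 18.8% for regions called in 1 library, 0% for those called in 2 and 85.7% for those called in 3 or 4. The medians were 40.2%, 39.5% and 68.9%. With 4 regions called in 2 libraries, these values cannot show whether the rise was steady.

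**Figure D4:**
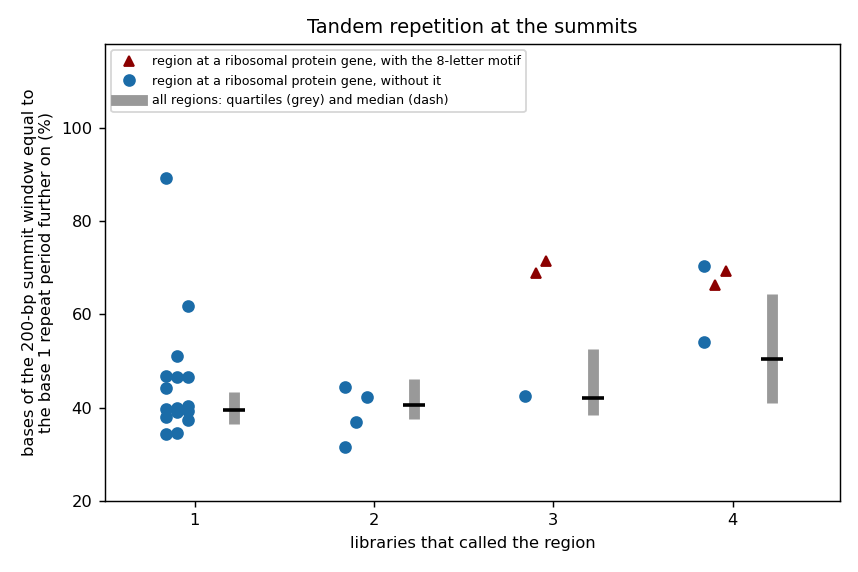
Share of bases (%) in the 200-bp summit window that equal the base 1 repeat period further on, against the number of libraries that called the region. Points are the 27 regions at ribosomal protein genes, triangles those with ATCCATCC, and grey bars with dashes the quartiles and median of all regions. The 4 triangles lie between 66.3% and 71.4% and were called in 3 or 4 libraries.

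The motif ATCCATCC was chosen after these summit sequences had been seen, so its share here is no independent support for an excess. Searched on both strands, it was present at 4 of the 27 regions (14.8%). The share was 2.27% over all regions and 2.66% over regions at protein-coding genes. Among the 4 were RPL28 and both RPL36 regions, which were called in 3 or 4 libraries and lie on chromosome 19. On that chromosome 10.4% of all regions held it. Ribosomal protein genes are many there, with 12 of the 79, and 5 of the 12 held a peak in any library. Of the 1468 other protein-coding genes on chromosome 19, 46.5% held one. A run of at least 30 purines or pyrimidines was found at 10 of the 27 regions (37%), beside 21.8% of all regions. A run of at least 10 A or T was found at 10 regions (37%), beside 29.9%. CAGGCTGG, the motif that the study names for 6mA peaks, was at 8 regions (29.6%), beside 12.1% of all regions and 14.9% of regions at protein-coding genes. Of the 7 regions called in 3 or 4 libraries, 1 held it (14.3%), that of RPS29, beside 5.96% of all regions called in 3 or 4 libraries.

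Repeats were then located without regard to peaks. A tract was a stretch in which 200-bp windows, taken every 50 bp, had a tandem share of at least 60%. The windows of ribosomal protein genes held 16 tracts, or 9.72 per Mb, beside 12.4 per Mb at all protein-coding genes. A tract was present at 10 of the 79 genes (12.7%), beside 22.9% of other genes weighted to the same lengths. Of the 10 genes with a tract, 6 held a peak in any library (60%), and of the 69 without, 16 (23.2%). For other protein-coding genes the shares were 77.3% with a tract and 39.1% without. Ribosomal protein gene windows were therefore sparser in long tandem repeats as well as in peaks, and the part of repeats in the lower share of genes with a peak was not tested.

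Of the 16 tracts at ribosomal protein genes, 6 (37.5%) lay under a peak in any library, beside 32.1% of tracts at protein-coding genes. In all 4 libraries it was 2, at RPL28 and RPL36, beside 14.1%. The longest tract, 800 bp, was that of the first RPL36 region. The tracts at RPL5, RPL23, RPL26, RPS21 and RPS24 lay under no peak, nor did a second tract at RPL28 (300 bp) and a further tract at RPL37A (250 bp). The 16 also include 3 tracts under no peak at RPS4Y1 on chromosome Y, whose presence in the cells was not analysed here. Of tracts of like length, some were called and others were not. At the second RPL36 region the tract measured 450 bp.

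Other genes of the ribosome and of translation were counted in the same way. Of the mitochondrial ribosomal protein genes, whose products build the separate ribosome of the mitochondrion, 15 and 19 of 78 held a peak in control, against 23 and 20 in si-N6AMT1. Their mean share of 24.7% ± 4.24 was within the spread of the 26.3% ± 2.68 of other genes weighted to their lengths (SD, n = 4 libraries). Of the 8 paralogues with an L-like suffix, RPL22L1 and RPL39L held peaks in all 4 libraries and the other 6 in none. This is 25% in each library, beside 25.9% ± 2.73 of other genes weighted to their lengths, so the list was at the background share. The parent gene RPL22 held none, and neither did RPL39. Of 48 ribosome assembly factors, 10 and 13 held a peak in control, against 14 and 13 in si-N6AMT1. Their mean share was 26% ± 3.61, beside 36.4% ± 3.3. A mean share below that of other genes of like length was thus not particular to the cytosolic ribosomal protein genes. Of 38 translation initiation and elongation factors, 8 and 10 held a peak in control, against 14 and 17 in si-N6AMT1. Their mean share was 32.2% ± 10.6, beside 38.3% ± 3.36. Whether the lists differ from each other was not tested.

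**Figure D5:**
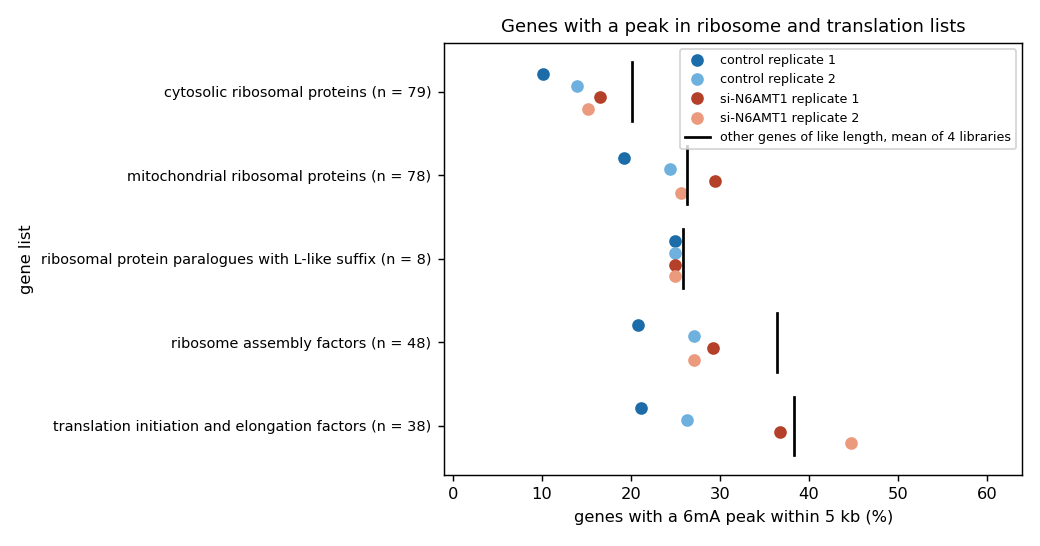
Share of genes (%) with a 6mA peak within 5 kb in each library, for cytosolic ribosomal proteins and related lists. Dots are libraries, blue for control and red for si-N6AMT1, and the black line is the mean share of other protein-coding genes weighted to the lengths of the list. The 4 dots of the cytosolic ribosomal proteins, from 10.1% to 16.5%, lie left of their line at 20.1%. Those of the ribosome assembly factors, from 20.8% to 29.2%, also lie left of their line, at 36.4%. The paralogue dots, at 25%, lie just left of 25.9%, and the other lists have dots on both sides.

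Processed pseudogenes copy the messenger RNA of ribosomal protein genes without introns. GENCODE lists 1587 pseudogenes, processed or of another type, that carry the name of such a gene, with at least 1 for 77 of the 79. A peak over the pseudogene itself was found at 34 (2.14%) in any library and at 1 in all 4. By library, 7 and 12 had one in control, against 12 and 21 in si-N6AMT1. Their median length was 478 bp. No share over bodies of like length was counted for other genes. With 5 kb on either side, 25.7% of the pseudogenes had a peak in any library, beside 21.6% of other protein-coding genes under 2.5 kb. The ribosomal protein genes themselves gave 27.8%, but their windows are longer, so this share is not of like length. Short reads from a gene and its near-identical pseudogenes can be hard to place. Coding sequence, which processed pseudogenes copy, held no peak at the genes, without a background share to set beside it.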

How the data were processed

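Per the study's methods, the authors filtered the reads (Trimmomatic), mapped them to hg19 (bowtie2 2.3.5), discarded duplicates (SAMtools 1.9) and ran MACS version 2 on every immunoprecipitated library with a p-value limit of 1e-05. The input behind each call is not given in the sources used here. The deposited lists hold a start, an end and a summit per peak, a score, the fold enrichment, and −log10 p and −log10 q at the summit. The deposited score is a whole-number form of −log10 p and was not used on its own. The fold is the authors' ratio of pileup to local background, with 1 added to each, so it understates the plain ratio where the background is low. Pileups and backgrounds were recovered from the fold and −log10 p together, within 0.01 of −log10 p for 100% of peaks. The lowest background of a list served as its relative depth. Read totals were not analysed here, and median pileups of 17 to 19 fragments mean that weak calls rest on few fragments.

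Members, related lists and tests were chosen with earlier results of these data known. The annotation was GENCODE v44, lifted over to GRCh37, on chromosomes 1 to 22, X and Y, with 20 mitochondrial peaks left out. No peak end lay past a chromosome end (0 found). Overlap meant at least 1 bp, and overlapping peaks of the 4 libraries were merged into regions. Shares of other genes were weighted over 5 length classes with edges at 2.5, 5, 10 and 20 kb. Summit windows were 200 bp. Groups were compared by exact permutation (two-sided) over the 6 ways to split the libraries. Named genes were those with a region called in all 4 libraries, in both libraries of 1 group alone, or at a promoter or exon. The others named were added after their values were seen. Some single genes and sequences are not reported here, nor shown in the plots by gene. Overlap counting, region merging and pileup recovery were tested on simulated data. Replicate numbers were not treated as pairs in the main comparison. The deviations of same-numbered libraries correlated at 0.0053 across 72537 regions, but 2 pairs cannot show whether the samples were prepared as pairs. Python 3.11.15, numpy 2.4.6, scipy 1.17.1, pysam 0.24.0 and matplotlib 3.10.9 were used.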

Additional observations from a re-analysis of the deposited data

How the results depend on the processing

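With the MANE Select transcript as the gene, added after seeing the data, the difference in ribosomal protein genes with a peak became −0.5 and that in peaks −0.5 (each p = 1, exact permutation test), and that of the density ratios −0.113 (exact permutation p = 0.667). The mean share became 6.65% for ribosomal protein genes and 13.5% for other genes of like length, with 1 region called in all 4 libraries and 0 in si-N6AMT1 alone. With the gene body alone the mean share was 5.38%, that of other genes 11.9%, and 1 region was called in all 4. With 1 kb on either side the values were 6.01%, 13.3% and 2 regions, and with 10 kb 24.4%, 28.3% and 8 regions. Deciles of gene length gave 17.2% for the other genes. The number of regions called in si-N6AMT1 alone was 0 when −log10 q had to reach 5 and 0 with equal numbers of peaks. With equal numbers the difference in genes with a peak was 1 (exact permutation p = 1) and that in peaks 2, and with 1 kb on either side 0.5 and 2. With the gene body alone they were 1.5 and 2.5, and with 10 kb 4.5 and 6.5.

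Leaving out a library in turn gave 1 to 3 regions called in control alone, and 2 to 8 in si-N6AMT1 alone. The count in control alone was 3 without either control library and 2 without si-N6AMT1 replicate 1. The count in si-N6AMT1 alone was 2 without either control library, 6 without si-N6AMT1 replicate 1 and 8 without si-N6AMT1 replicate 2. By construction, a group with 1 library left needs 1 call in place of 2. The difference in genes with a peak then ranged from 1.5 to 4.5, that in peaks from 3.5 to 5.5, that of the density ratios from 0.06 to 0.128, and that in median fold from −1.39 to −0.157. With the replicate block, a sign-flip over 2 pairs, the difference in genes with a peak was 3 and that in peaks 4.5, each with an exact permutation p of 0.5, the smallest it allows. The share of ribosomal protein genes with a peak was below that of other genes of like length under all settings given here. Where no cause is stated, the cause was not tested. Few fragments per peak limit what a missing call shows.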
